A study of Mus musculus with 8 samples.

Results

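Gdpd3, Mapk3, Coro1a, Lat and Spn are 5 genes on mouse chromosome 7 that lie within 2 Mb of Kat8 and whose messenger RNA differed between KAT8-deficient and wild-type (WT) macrophages both with and without R848. They are 5 of the 34745 genes in the deposited count table and 5 of the 168 listed there within 2 Mb of Kat8. They were chosen by their genotype differences, each of which passed an adjusted p of 0.05 in both states, so those differences are given here as a description, with no test. The same 2 conditions were met by 7 of the 102 tested genes of this window, the other 2 being Kat8 itself and Itgal, which encodes the alpha L integrin chain.

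The cells were bone-marrow-derived macrophages, primary mouse cells grown from marrow in M-CSF, the macrophage growth factor, at 20 ng/ml. The 4 groups of 2 libraries each were KAT8-deficient cells with R848 at 100 ng/ml for 6 h, WT cells with the same R848 treatment, untreated KAT8-deficient cells and untreated WT cells. R848 is a small-molecule agonist of the RNA-sensing receptor TLR7, and KAT8 (MOF) is a histone H4 acetyltransferase. The KAT8-deficient samples carry the designation KAT8-cKO. The labels are silent on how and in which cells Kat8 was deleted, on strain, on any modified allele in the WT animals and on whether libraries of 1 group come from separate animals. The p-values below therefore measure the spread between these libraries, which may be technical.

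Total counts per library ran from 18550977 to 21384532, and 3 counts, taken as the floor, equal 0.14 to 0.163 CPM, the read count scaled to library size. Kat8 (ENSMUSG00000030801, chr7:127912516-127925837, plus strand, GRCm38) had 9.94 and 10.4 CPM in R848-treated KAT8-deficient cells, against 18 and 16 CPM in R848-treated WT cells. Untreated, it had 8.76 and 10.8 CPM in KAT8-deficient cells, against 17 and 17.9 CPM in WT cells. The genotypes did not overlap, and the KAT8-deficient mean was 59.7% of the WT mean under R848 and 56% untreated. Whole-gene counts do not show which exons were lost.

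The 5 genes have separate roles in leukocytes and lipid metabolism. Mapk3 encodes ERK1, a kinase at the end of the RAF, MEK and ERK cascade that carries growth factor and innate receptor signals. Gdpd3 encodes a lysophospholipase D that releases lysophosphatidic acid from lysophospholipids. Coro1a encodes coronin 1A, an actin-binding protein of leukocytes that works beside the Arp2/3 complex and is retained on phagosomes by mycobacteria. Lat encodes the membrane adaptor that assembles signalling complexes below the T cell receptor and, in mast cells, below the IgE receptor. Spn encodes CD43, a heavily glycosylated sialomucin of the leukocyte surface that is linked to actin through ezrin, radixin and moesin.

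The promoter windows of 4 of the 5 genes are shown because Gdpd3, Coro1a and Lat were higher in KAT8-deficient cells and Spn lower. RefSeq's table for GRCm38.p6 held no entry for Mapk3. Each window runs 5′ to 3′ on the gene's strand from 250 bases before the RefSeq start to 50 bases from it. Capitals mark matches on either strand to any of 8 motif letter strings, namely the Sp1 GC box GGGCGG, the ETS core GGAAGT, the PU.1 core GAGGAA, the AP-1 site TGANTCA, the CRE half-site TGACG, the CCAAT box, the TATA box TATAAA and the YY1 core AAGATGG. Coro1a has 2 RefSeq starts, and the more upstream is shown.
Gdpd3, chr7:126766164-126766463, plus strand: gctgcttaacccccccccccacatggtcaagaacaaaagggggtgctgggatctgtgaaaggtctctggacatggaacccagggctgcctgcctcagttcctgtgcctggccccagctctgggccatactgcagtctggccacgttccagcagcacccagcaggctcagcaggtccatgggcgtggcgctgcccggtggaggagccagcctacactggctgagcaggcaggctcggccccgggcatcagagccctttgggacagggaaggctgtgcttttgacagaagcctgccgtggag
Coro1a, chr7:126704767-126705066, minus strand: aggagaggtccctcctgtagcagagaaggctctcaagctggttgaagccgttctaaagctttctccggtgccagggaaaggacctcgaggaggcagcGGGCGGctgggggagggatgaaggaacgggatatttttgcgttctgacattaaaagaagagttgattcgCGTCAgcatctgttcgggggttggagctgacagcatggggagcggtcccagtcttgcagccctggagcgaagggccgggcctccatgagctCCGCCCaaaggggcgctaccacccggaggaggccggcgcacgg
Lat, chr7:126369519-126369818, minus strand: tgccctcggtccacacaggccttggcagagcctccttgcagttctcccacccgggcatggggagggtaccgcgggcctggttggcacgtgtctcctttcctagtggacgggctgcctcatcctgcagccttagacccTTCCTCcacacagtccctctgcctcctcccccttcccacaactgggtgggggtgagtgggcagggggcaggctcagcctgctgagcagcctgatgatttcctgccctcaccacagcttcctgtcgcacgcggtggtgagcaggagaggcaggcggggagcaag
Spn, chr7:127137774-127138073, minus strand: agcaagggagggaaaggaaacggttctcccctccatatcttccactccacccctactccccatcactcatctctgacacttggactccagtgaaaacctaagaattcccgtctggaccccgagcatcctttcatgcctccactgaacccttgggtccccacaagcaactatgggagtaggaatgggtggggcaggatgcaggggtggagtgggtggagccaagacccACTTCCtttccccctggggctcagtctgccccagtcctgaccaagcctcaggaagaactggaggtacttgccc

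These windows had little in common. The Gdpd3 window held none of the 8 letter strings. The Coro1a window held 2 GC boxes, found in 35.7% of the 32851 promoter windows of the table, and 1 CRE half-site, found in 20.8%. Lat had 1 PU.1 core (28.3% of windows) and Spn 1 ETS core (23.8% of windows). None of the 4 windows held an AP-1 site, CCAAT box, TATA box or YY1 core, which 7.81%, 37.4%, 13.6% and 6.34% of all windows held. The observed over expected number of CpG dinucleotides was 0.226 for Gdpd3, 0.703 for Coro1a, 0.31 for Lat and 0.124 for Spn, against a median of 0.384 over all windows. Only the Coro1a window was above that median. A match to letters is a description of the sequence and not evidence of binding, and no match says only that these letters are absent from the window.

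All 5 genes lie on the lower-coordinate side of Kat8. Lat (ENSMUSG00000030742, chr7:126363824-126369570, minus strand) is the farthest, at 1543 kb from the Kat8 gene. Coro1a (ENSMUSG00000030707, chr7:126699773-126707787, minus strand) is 1205 kb away, Mapk3 (ENSMUSG00000063065, chr7:126759601-126765819, plus strand) 1147 kb, Gdpd3 (ENSMUSG00000030703, chr7:126766334-126775649, plus strand) 1137 kb and Spn (ENSMUSG00000051457, chr7:127132232-127137823, minus strand) 775 kb. Coro1a, Mapk3 and Gdpd3 are consecutive tested genes. Mapk3 and Gdpd3 are read in the same direction with 514 bases between the gene models.

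Gdpd3 showed by far the widest gap of the 5. It had 40.6 and 47.6 CPM in R848-treated KAT8-deficient cells, against 2.72 and 1.89 CPM in R848-treated WT cells. Untreated KAT8-deficient cells had 49.1 and 43.4 CPM, against 2.52 and 2.72 CPM in untreated WT cells. Every KAT8-deficient library was high and every WT library low, with 37 to 54 reads per WT library. The ratio of means was 19.1 under R848 and 17.7 untreated, a log2 difference of 4.26 (SE 0.17) and 4.14 (SE 0.16). By size of log2 difference Gdpd3 had rank 10 under R848 and rank 5 untreated among the genes higher in KAT8-deficient cells, of 14040 tested.

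Mapk3, the most abundant member, had 315 and 376 CPM in R848-treated KAT8-deficient cells, against 159 and 174 CPM in R848-treated WT cells. Untreated, it had 391 and 370.2 CPM in KAT8-deficient cells, against 198 and 209.5 CPM in WT cells. The genotypes did not overlap in either state, with ratios of 2.08 and 1.87 and log2 differences of 1.05 (SE 0.09) under R848 and 0.90 (SE 0.09) untreated. Set against Mapk3 per base of exon, the Gdpd3 level was 13.3% and 13.1% in R848-treated KAT8-deficient cells, against 1.77% and 1.12% in WT cells with R848. Untreated, it was 13% and 12.1% in KAT8-deficient cells, against 1.31% and 1.34% in WT cells. The share of Gdpd3 relative to Mapk3 thus did not overlap between the genotypes.

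Coro1a had 222 and 195 CPM in R848-treated KAT8-deficient cells, against 114 and 117 CPM in R848-treated WT cells. Untreated, it had 238 and 225 CPM in KAT8-deficient cells, against 124 and 131 CPM in WT cells. Its log2 difference was nearly the same in the 2 states, 0.85 (SE 0.08) under R848 and 0.86 (SE 0.08) untreated. Lat had 19.4 and 23.1 CPM in R848-treated KAT8-deficient cells, against 13.2 and 13.2 CPM in R848-treated WT cells. Untreated, it had 21.9 and 20.1 CPM in KAT8-deficient cells, against 9.37 and 9.18 CPM in WT cells. The log2 difference of Lat was 0.69 (SE 0.11) under R848 and 1.18 (SE 0.12) untreated, and the genotypes did not overlap.

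Spn was the one member that was lower in KAT8-deficient cells. It had 8.81 and 6.37 CPM in R848-treated KAT8-deficient cells, against 19.1 and 15.7 CPM in R848-treated WT cells. Untreated, it had 7.56 and 5.94 CPM in KAT8-deficient cells, against 14.4 and 11.8 CPM in WT cells. Its KAT8-deficient mean was 43.7% of the WT mean under R848 and 51.5% untreated, log2 differences of -1.19 (SE 0.19) and -0.96 (SE 0.20). Spn was the least precise of the 5, with 111 to 358 reads per library. Its untreated adjusted p did not pass when any 1 of the 4 untreated libraries was left out (0.0718 to 0.174) or without WT R848 replicate 1 (0.0531).

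**Figure D1:**
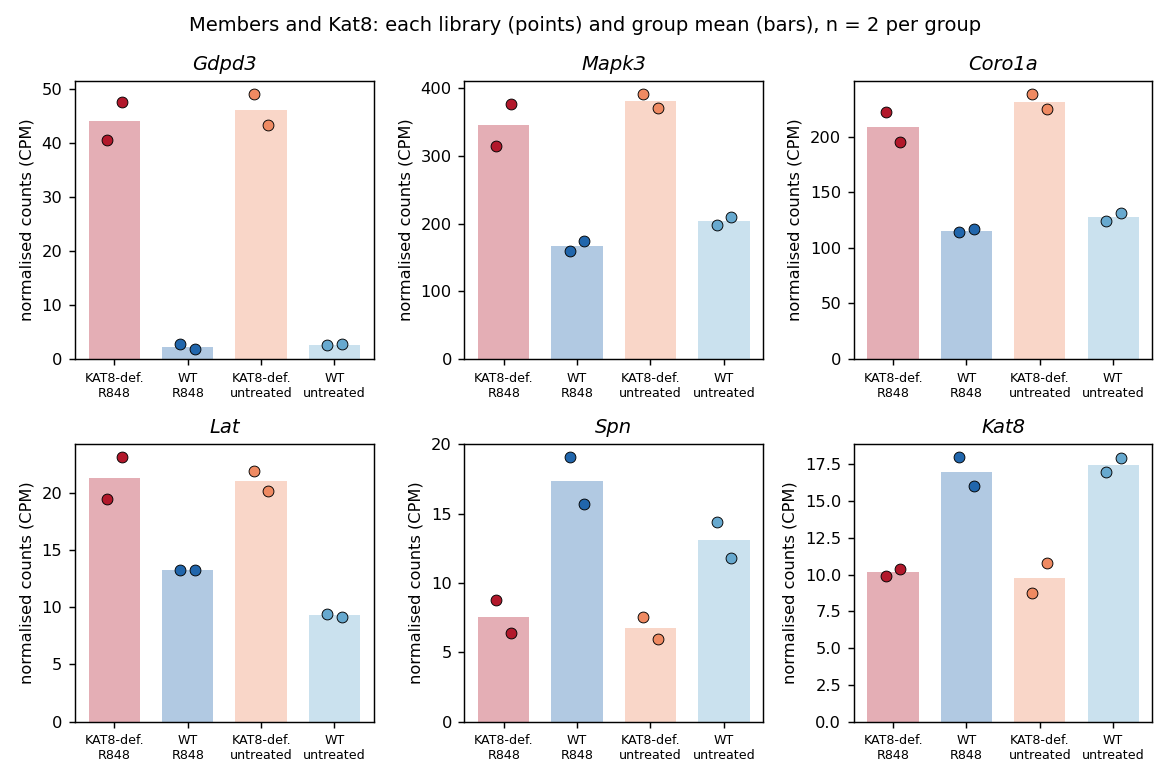
Normalised counts (CPM, linear axis from 0) of the 5 genes and Kat8 in each of the 8 libraries (points) with the group mean (bars, n = 2 per group). All KAT8-deficient points lie above the WT points for Gdpd3, Mapk3, Coro1a and Lat, and below them for Spn and Kat8.

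In all, 4 of the 5 members were called higher and 1 lower in each state, where 13.6% of all tested genes were called under R848, 4.27% untreated and 3.06% in both states. By direction, 8.14% of tested genes were called higher and 5.47% lower under R848, 2.91% higher and 1.36% lower untreated, and 2.24% higher and 0.783% lower in both states. The choice of members fixes these counts. Near the limits of the rule, Spn was the member with the largest adjusted p (0.0348, untreated), and Trim72 was the window gene that came nearest without meeting it (0.107, under R848). Trim72, a membrane repair gene, had 0.518 and 0.99 CPM in R848-treated KAT8-deficient cells against 0.267 and 0.306 CPM in R848-treated WT cells, levels close to the counting floor. Itgal had 72.7 and 92.1 CPM in R848-treated KAT8-deficient cells, against 239.7 and 244 CPM in R848-treated WT cells. Untreated, Itgal had 73.7 and 77.4 CPM in KAT8-deficient cells, against 154 and 175 CPM in WT cells. Itgal and Spn, both leukocyte adhesion molecules, were the window genes other than Kat8 that were called lower in both states. Il27 and Hsd3b7 were called lower under R848 only.

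Per kilobase of exon the order of the 5 genes differed between the genotypes. In R848-treated KAT8-deficient cells it was Mapk3 at 153 ± 19.3 CPM per kb, Coro1a at 74.9 ± 7.07, Gdpd3 at 20.2 ± 2.26, Lat at 7.68 ± 0.957 and Spn at 1.62 ± 0.369 (SD, n = 2). In R848-treated WT cells it was Mapk3 at 73.7 ± 4.78 CPM per kb, Coro1a at 41.6 ± 0.727, Lat at 4.76 ± 0.000759, Spn at 3.71 ± 0.517 and Gdpd3 at 1.05 ± 0.269 (SD, n = 2). Gdpd3 stood above Lat and Spn in KAT8-deficient cells and below them in WT cells, and Mapk3 and Coro1a led in every group. The untreated groups had the same order as the R848-treated group of their genotype, and libraries of neighbouring genes in each order did not overlap. Exon lengths are unions over all annotated transcripts, so these levels are approximate.

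The R848 response was not itself used to choose the genes and was tested. The response within a genotype shares its libraries with the genotype contrasts that chose the genes, so its p-values are not independent of that choice. In KAT8-deficient cells 0 of 5 members passed by edgeR or DESeq2 (edgeR adjusted p from 0.409 to 0.959, with 0 at an unadjusted p under 0.05), where 0.634% of tested genes did. In WT cells Lat rose by 0.51 on the log2 scale (SE 0.12, edgeR adjusted p = 0.0234), and the other 4 did not pass by edgeR. By DESeq2 the 1 member called in WT cells was Mapk3 (-0.30, SE 0.10, adjusted p = 0.0303) and not Lat (adjusted p = 0.054). Across all tested genes 13.6% passed in WT cells, 6.94% higher and 6.7% lower with R848.

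The median absolute log2 change with R848 over all tested genes was 0.18 in WT cells and 0.13 in KAT8-deficient cells. In WT cells the log2 change was -0.29 (SE 0.09, edgeR adjusted p = 0.0725) for Mapk3, -0.14 (SE 0.08, edgeR adjusted p = 0.283) for Coro1a, -0.18 (SE 0.21, edgeR adjusted p = 0.637) for Gdpd3 and 0.41 (SE 0.19, edgeR adjusted p = 0.199) for Spn. In KAT8-deficient cells the changes ran from -0.15 (SE 0.08) for Coro1a to 0.17 (SE 0.21) for Spn, with Lat at 0.02 (SE 0.11). Averaged over both genotypes, 0 of 5 passed by edgeR, where 14.8% of tested genes did (7.53% higher and 7.31% lower), although 3 had an unadjusted p under 0.05 and DESeq2 called 1, Mapk3. The rise of Lat in WT cells did not pass when any of the 4 WT libraries was left out (edgeR adjusted p from 0.0801 to 0.112).

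**Figure D2:**
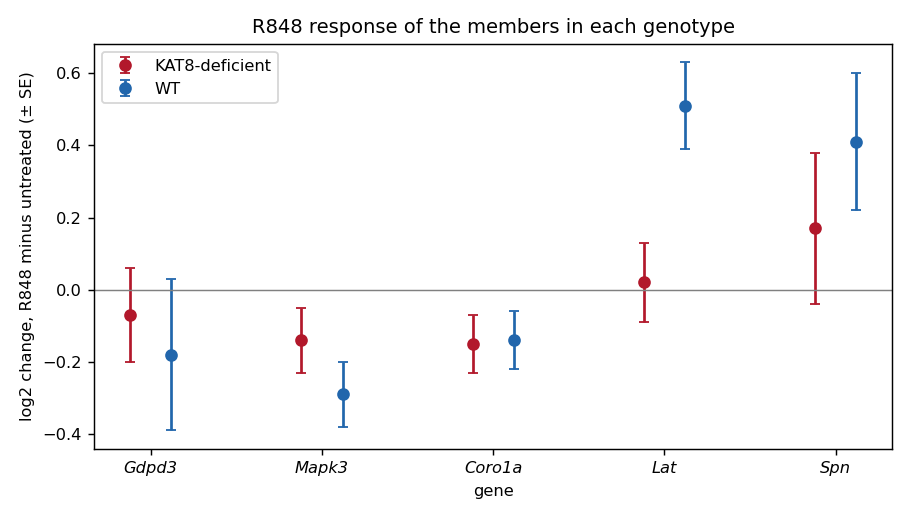
Log2 change with R848 (R848 minus untreated, ± SE) of the 5 genes in KAT8-deficient cells (red) and WT cells (blue). All values lie between -0.29 and 0.51, and Lat in WT cells is the one that passed edgeR's test.

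The response in KAT8-deficient cells minus that in WT cells is the difference of the 2 contrasts that chose the genes and is given without a test, beside 0.228% of tested genes called for it. It was -0.49 (SE 0.16) for Lat, -0.24 (SE 0.28) for Spn, 0.15 (SE 0.13) for Mapk3, 0.11 (SE 0.25) for Gdpd3 and -0.01 (SE 0.11) for Coro1a. Lat had the widest, since its WT level was 13.2 ± 0.0021 CPM with R848 and 9.27 ± 0.133 CPM untreated, while its KAT8-deficient level was 21.2 ± 2.65 and 21 ± 1.29 CPM (SD, n = 2).

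The nearest tested genes other than members were read next. They did not meet the rule that chose the members, so differences smaller than those of the members follow in part from the choice. Directly beyond Gdpd3, Ypel3 (a small zinc-binding protein gene, 1305 bases away) had 31.9 and 29.3 CPM in R848-treated KAT8-deficient cells, against 22 and 19.2 CPM in R848-treated WT cells. Its log2 difference of 0.57 passed under R848 (SE 0.10, edgeR adjusted p = 0.00695), and its untreated difference of 0.29 did not (SE 0.10, edgeR adjusted p = 0.145). The next 2 tested genes, Ppp4c (a phosphatase catalytic subunit) and Aldoa (a glycolytic aldolase), had 0.02 (SE 0.10) and 0.19 (SE 0.08) under R848 and 0.35 (SE 0.10) and 0.31 (SE 0.08) untreated, none past the test. On the other side of Coro1a, Bola2 had -0.04 (SE 0.08, edgeR adjusted p = 0.816) under R848 and 0.16 (SE 0.08, edgeR adjusted p = 0.312) untreated.

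Lat and Spn have 4 such neighbours. Spns1, a lysosomal transporter gene 489 bases from Lat, had a log2 difference of 0.27 under R848 (SE 0.07, edgeR adjusted p = 0.0289) and 0.02 untreated (SE 0.07, edgeR adjusted p = 0.906). Sbk1, a kinase gene on the other side of Lat, had -0.20 (SE 0.21, edgeR adjusted p = 0.582) under R848 and -0.89 (SE 0.21, edgeR adjusted p = 0.0513) untreated. The neighbours of Spn, AI467606 and Cd2bp2, had 0.05 (SE 0.08) and 0.07 (SE 0.20) under R848 and -0.21 (SE 0.08) and 0.15 (SE 0.20) untreated, none past the test. Some gene models overlap a member, and how reads of the shared bases were assigned was not given. Bola2 shares 26 bases with Coro1a and had 24.7 to 28.1 CPM, and the antisense model Gm9967 across Gdpd3 had at most 0.186 CPM in any library.

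**Figure D3:**
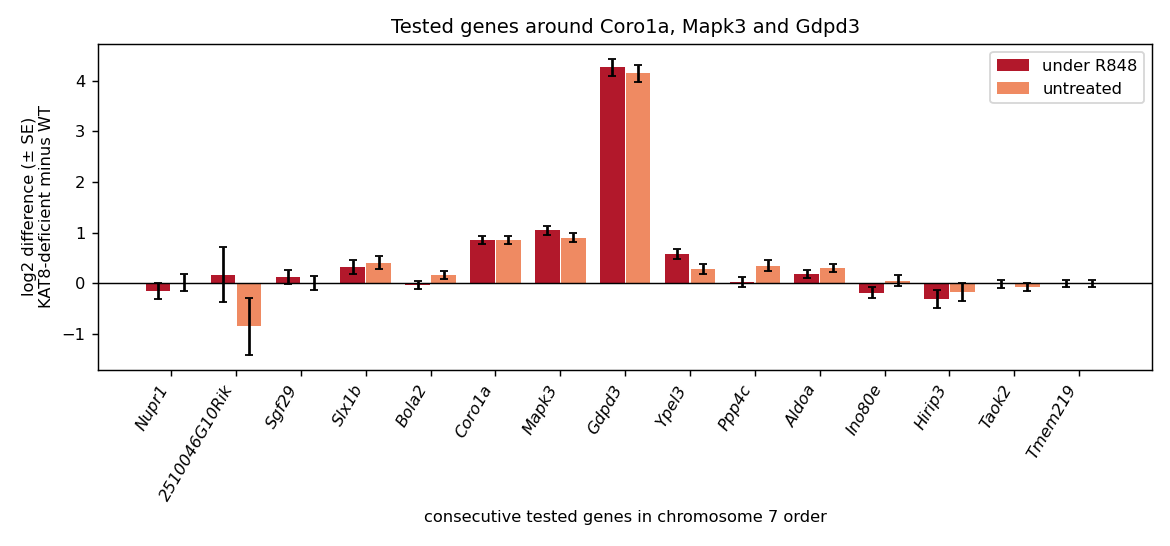
Log2 difference (KAT8-deficient minus WT, ± SE) of 15 consecutive tested genes in chromosome 7 order, under R848 (dark red) and untreated (orange). Coro1a, Mapk3 and Gdpd3 stand next to each other, with Gdpd3 above 4. Under R848 the genes on either side of the trio are Bola2 at -0.04 and Ypel3 at 0.57.

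Within 2 Mb of Kat8, 13 of 102 tested genes were called under R848, 8 higher and 5 lower in KAT8-deficient cells, and 8 were called untreated, 5 higher and 3 lower. Without WT R848 replicate 1 or 2 the count under R848 was 8, and without KAT8-deficient untreated replicate 1 the untreated count was 5. The full counts are 12.7% and 7.84%, beside 13.6% and 4.27% of all tested genes. The shares called in both states were 6.86% in the window and 3.06% overall. Without the 5 members and Kat8 the window held 96 tested genes, of which 7.29% were called under R848 and 2.08% untreated, and the median log2 difference was -0.03 in each state. The genes left out were all called in both states, so leaving them out by itself lowers these shares. Close to Kat8 itself, 0 of 10 other tested genes within 100 kb were called under R848 and 1, Trim72, was called untreated (log2 difference 2.29, SE 0.47, edgeR adjusted p = 0.0347).

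Most of the other called genes of the window passed in 1 state. Under R848 these were Ypel3, Spns1, the GTPase regulator gene Rgs10 (0.33, SE 0.09, edgeR adjusted p = 0.0441), the cytokine subunit gene Il27 (-2.61, SE 0.50, edgeR adjusted p = 0.0106), the bile acid enzyme gene Hsd3b7 (-0.94, SE 0.21, edgeR adjusted p = 0.02) and the predicted gene Gm49388. Il27 was scarce, with 0.471 and 0.141 CPM in R848-treated KAT8-deficient cells, against 1.87 and 1.94 CPM in WT cells with R848. Hsd3b7 and Gm49388 overlap and are uncertain, since Gm49388 had 44.9 and 61.9 CPM in R848-treated KAT8-deficient cells, 0 and 0.255 CPM in R848-treated WT cells, and 21.9 and 0 CPM in the 2 untreated WT libraries.

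**Figure D4:**
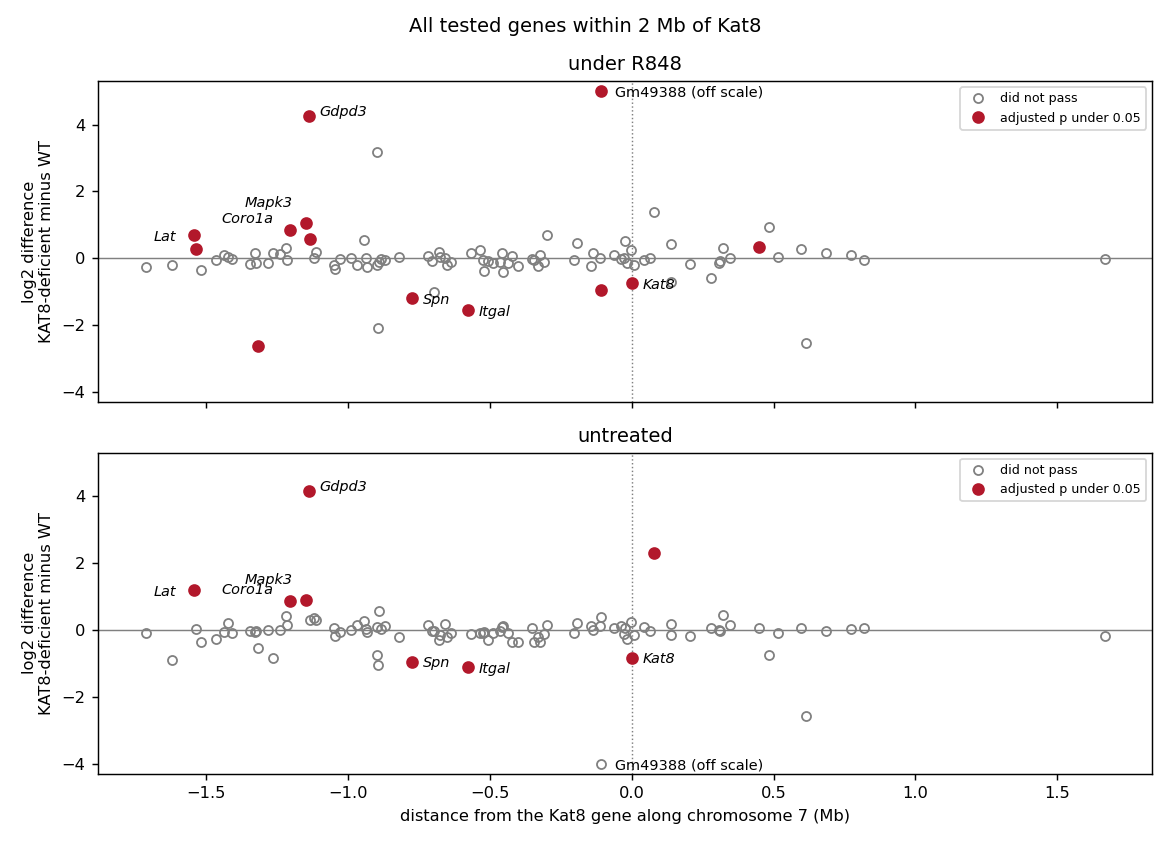
Log2 difference (KAT8-deficient minus WT) of all 102 tested genes within 2 Mb of Kat8 against distance from the Kat8 gene in Mb, negative toward lower coordinates, under R848 (top) and untreated (bottom). Filled points passed an adjusted p of 0.05, Gm49388 lies beyond the axis and is drawn at its edge, and the members sit between -1.54 and -0.77 Mb, among many genes near 0.

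The share called in both states differed between the sides of Kat8. Toward lower coordinates, 2 of 53 tested genes were called in both states within 1 Mb, 4 of 27 from 1 to 2 Mb, 0 of 10 from 2 to 5 Mb, 0 of 37 from 5 to 10 Mb, 0 of 50 from 10 to 20 Mb and 15 of 732 (2.05%) beyond 20 Mb. The 6 within 2 Mb are the members and Itgal. This count runs over all tested genes there, and the members were drawn from it, so it is no separate support for them. Toward higher coordinates it was 0 of 21 within 2 Mb, 3 of 18 from 2 to 5 Mb, 1 of 15 from 5 to 10 Mb and 11 of 85 from 10 to 20 Mb. The 4 genes between 2 and 10 Mb were Fgfr2, Tacc2, Htra1 and Adam12, named after their values were seen, with untreated log2 differences from 0.39 to 0.51. Over chromosome 7 as a whole, 3.53% of 1049 tested genes were called in both states, against 3.03% on the other chromosomes. All KAT8-deficient libraries share the KAT8-cKO label, and the labels do not say whether the WT animals carry a modified Kat8 allele as well. No base calls are in a count table. DNA carried along with a targeted allele and the loss of KAT8 therefore cannot be told apart in these values.

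**Figure D5:**
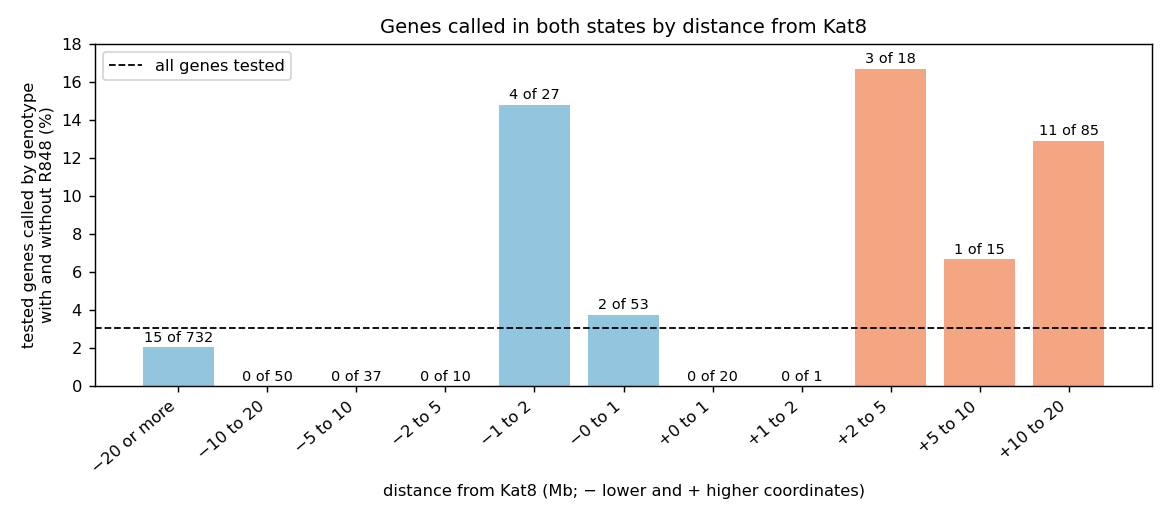
Share of tested genes called by genotype in both states (percent, from 0) in bins of distance from Kat8, lower coordinates in blue and higher in orange, with the counts above each bar and the share over all tested genes (3.06%) as a dashed line. The bar from 1 to 2 Mb on the lower side holds Lat, Coro1a, Mapk3 and Gdpd3, and bars of like height stand from 2 to 5 and from 10 to 20 Mb on the higher side.

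Partners of each product were then described from lists, to be read beside the 13.6% of all tested genes called by genotype under R848 and the 4.27% called untreated. Of 12 genes of the ERK cascade other than Mapk3, 1 was called under R848 by edgeR and by DESeq2. Untreated, 0 were called by edgeR or DESeq2, with 3 genes at an unadjusted p under 0.05. The median log2 difference was -0.03 under R848 and -0.02 untreated, beside -0.01 over all tested genes in each state. Of 16 genes that ERK signalling induces or that restrain it, 3 were higher under R848, namely the transcription factor genes Egr1 (0.78, SE 0.12) and Fos (0.69, SE 0.19) and the RAS pathway inhibitor Spry4 (0.68, SE 0.18). The inhibitors Spred1 (-0.44, SE 0.08) and Dusp4 (-0.32, SE 0.08) were lower. Untreated, Egr1 (0.61, SE 0.12) and the ERK phosphatase gene Dusp6 (0.42, SE 0.08) were higher and 0 were lower, and the list's median was 0.18 under R848 and 0.20 untreated.

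Of 14 listed genes of coronins, Arp2/3 and their actin partners, without Coro1a, 3 were higher under R848 and 0 lower. The 3 were the coronins Coro2a (0.57, SE 0.09) and Coro1c (0.28, SE 0.05) and the actin-severing cofilin gene Cfl1 (0.30, SE 0.06). Untreated, Cfl1 alone passed (0.31, SE 0.06), and the medians were 0.18 under R848 and 0.15 untreated. Of 11 tested partners of LAT, 2 were higher under R848, the related adaptor gene Lat2 (0.47, SE 0.10) and the phospholipase gene Plcg1 (0.26, SE 0.07). The adaptor gene Lcp2, which encodes SLP-76 (-1.05, SE 0.10), and the kinase and exchange factor genes Syk (-0.62, SE 0.10), Lyn (-0.32, SE 0.07) and Vav1 (-0.29, SE 0.08) were lower. Untreated, 0 of the 11 passed by edgeR or DESeq2, with 3 at an unadjusted p under 0.05, and the medians were -0.14 under R848 and -0.05 untreated.

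Of 13 listed genes of sialomucins, membrane linkers and other surface proteins, without Spn, 3 were higher and 3 lower under R848. The higher ones were Podxl (1.18, SE 0.14), Cd34 (0.62, SE 0.13) and the selectin ligand gene Selplg (0.42, SE 0.07). The lower ones were Icam1 (-1.53, SE 0.15), Ptprc (-0.38, SE 0.07) and Cd44 (-0.33, SE 0.07), and none of these 3 is a sialomucin gene. Untreated, the linker gene Ezr was higher (0.31, SE 0.05) and the sialic acid receptor gene Siglec1 lower (-0.53, SE 0.08), with medians of -0.04 under R848 and 0.06 untreated. Of 12 tested lipid enzyme genes related to Gdpd3, 0 were higher and 3 lower under R848, the paralogue Gdpd1 (-0.50, SE 0.07), Enpp2, which encodes the lysophospholipase D autotaxin (-0.57, SE 0.13), and the acyltransferase gene Lpcat2 (-0.96, SE 0.10). Untreated, 0 passed by edgeR or DESeq2, with 6 at an unadjusted p under 0.05, and the medians were -0.04 under R848 and -0.07 untreated.

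Lat, Coro1a and Spn are also genes of lymphocytes, so markers of other cells were read beside them. Counts of called markers, here and for the stromal and macrophage lists, stand beside 13.6% of all tested genes called under R848 and 4.27% untreated. T cell markers were at or near the counting floor. Their 12 genes summed to 2.97 and 3.11 CPM in R848-treated KAT8-deficient cells, against 2.76 and 4.53 CPM in WT cells with R848, and untreated to 2.41 and 2.84 CPM in KAT8-deficient cells and 2.93 and 2.98 CPM in WT cells. The receptor chain gene Cd3e averaged at most 0.0262 CPM in any group, and 0 of the 2 tested T cell markers, Cd4 and Lck, passed by edgeR or DESeq2 in either state, with 0 at an unadjusted p under 0.05, Lck being also on the list of LAT partners. Of 9 NK and mast cell markers Ncr1, Gzma and Fcer1a had 0 reads in all libraries, with 0 of 2 tested genes called by edgeR or DESeq2 and 0 at an unadjusted p under 0.05. They summed to 1.74 to 3.11 CPM in R848-treated KAT8-deficient cells, against 1.87 to 2.45 CPM in WT cells with R848, and untreated to 2.05 to 2.19 CPM in KAT8-deficient cells, against 1.21 to 1.68 CPM in WT cells. Of 8 B cell markers Cd22 alone passed (0.36, SE 0.08, under R848), and the median log2 difference of the 5 tested was 0.67 under R848 and 0.60 untreated. They summed, mostly through Cd22, to 129 to 143 CPM in R848-treated KAT8-deficient cells, against 100.2 to 108 CPM in WT cells with R848, and untreated to 121 to 134 CPM in KAT8-deficient cells, against 128 to 142 CPM in WT cells. Of 8 neutrophil markers Ly6g had 0 reads and Camp alone passed (-2.62, SE 0.65, under R848) by edgeR but not by DESeq2, with group means of 0.756 CPM or less. They summed to 5.05 to 5.98 CPM in R848-treated KAT8-deficient cells, against 7.1 to 8.48 CPM in WT cells with R848, and untreated to 5.99 to 6.51 CPM in KAT8-deficient cells, against 6.68 to 6.9 CPM in WT cells.

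Stromal and endothelial markers were mostly higher in KAT8-deficient cells. Of 12 tested stromal and endothelial markers 10 were higher under R848 and 8 untreated, 0 were lower, and their median log2 difference was 0.44 under R848 and 0.47 untreated. The 13 listed markers summed to 4073 to 4168 CPM in R848-treated KAT8-deficient cells against 2776 to 2979 CPM in R848-treated WT cells, and to 4599 to 4838 CPM in untreated KAT8-deficient cells against 3311 to 3830 CPM in untreated WT cells. Of 10 macrophage markers 2 were higher under R848, among them Fcgr1, and 5 lower (Adgre1, Csf1r, Cd14, Lyz2 and Spi1), and untreated Lyz2 alone passed (-1.04, SE 0.07). Their median log2 difference was -0.21 under R848 and -0.09 untreated. They summed to 9010 to 9535 CPM in R848-treated KAT8-deficient cells against 15399 to 16840 CPM in R848-treated WT cells, and to 9289 to 10145 CPM in untreated KAT8-deficient cells against 15870 to 16047 CPM in untreated WT cells, mostly Lyz2. The macrophage sum thus mostly follows Lyz2 and does not measure macrophage content. Lyz1, nearly identical to Lyz2 and so uncertain, was higher in KAT8-deficient cells (log2 difference 1.97 under R848 and 1.99 untreated). The part of the stromal and macrophage shifts in the members' differences was not tested. In bulk RNA, fewer cells of a type, less RNA per cell and a change in single genes such as Lyz2 cannot be told apart.

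The genes whose log2 CPM followed each member most closely over the 8 libraries lay mostly on other chromosomes. For Gdpd3 they were Lyz1 (Pearson r 0.999), Rbbp4 (0.998) and Heg1 (0.997), and for Mapk3 Lamb2 (0.996), Myo1d (0.995) and Pear1 (0.991). For Coro1a they were Reep1 (0.995), Tmem98 (0.993) and Lima1 (0.992), for Lat Tmem39a (0.985), Gm15931 (0.984) and Vcp (0.978), and for Spn Trim12c (0.986), Tti2 (0.985) and Mrps33 (0.983). Gm15931 and Trim12c are on chromosome 7, outside the 2 Mb window. Chromosome 7 held 1049 of the 14040 tested genes, so most genes of any such list would lie elsewhere. Lyz1, a lysozyme gene of chromosome 10 nearly identical to Lyz2 and so uncertain, had a log2 difference of 1.97 under R848 and 1.99 untreated. Between members r ran from 0.833 to 0.977 among the 4 higher genes and from -0.974 to -0.774 with Spn. These points share their libraries and the genotype split on which the members were chosen, and they are a description.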

How the data were processed

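Messenger RNA was sequenced from 8 libraries of mouse bone-marrow-derived macrophages, 2 per genotype and treatment. The deposited values are whole-number counts for Ensembl genes in 8 columns, as the authors' table shows. StringTie 1.3.0, HISAT2 and edgeR on mm10 are named, without roles, per the submitters' processing notes. Annotation, counting and strand settings were not given in the sources used here. Reads of overlapping models could thus be split.

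Gene positions came from GENCODE M21 (GRCm38, the build of mm10). Of 34745 genes, edgeR's filterByExpr kept 14040, with 99.95% of counts. All 8 libraries were fitted together (edgeR 4.0.16 in R 4.3.3, TMM, quasi-likelihood test, 1 mean per group, 4 residual degrees of freedom, common biological coefficient of variation 0.096). P-values were two-sided and Benjamini-Hochberg adjusted over all tested genes. Levels are TMM-scaled CPM. SE is the absolute log2 value divided by the square root of F. Precision is limited by groups of 2. Replicates differed beyond counting error (chi-square per degree of freedom 7.83 to 12.71). The fit was also run on counts simulated from its own estimate of the spread, with no shared replicate shifts. That run cannot show how the fit handles such shifts or libraries that are technical repeats.

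The members and lists were chosen with earlier results of these data known. Named genes were the members and Kat8, called window genes, nearest tested neighbours, the 3 window genes nearest to meeting the rule, up to 4 called genes per list and contrast, and 3 genes most correlated with each member. Of the 3 nearest, Nfatc2ip had a larger adjusted p of 0.123. Further called list genes and Fgfr2, Tacc2, Htra1 and Adam12 were added after their values were seen. Some called list genes are not reported here. Alternatives were DESeq2 1.42.0 (size factors; Wald test), limma-voom (limma 3.58.1), other filters, robust spread, a replicate block, the 4 libraries of a comparison alone, other windows and leaving out each library.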

Additional observations from a re-analysis of the deposited data

Results flagged for a closer look

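Among the called window genes and the members' nearest neighbours, Spns1, Il27 and Bola2 are flagged because both R848-treated libraries lay on opposite sides of both untreated libraries in the 2 genotypes. The response in KAT8-deficient cells minus that in WT cells was 0.25 for Spns1 on the log2 scale, -2.06 for Il27 and -0.20 for Bola2. None of the 3 differences passed edgeR's test of it (adjusted p = 0.341 for Spns1, 0.321 for Il27 and 0.575 for Bola2). Such opposite moves were seen in 9 of the 102 tested genes of the window, with 0 of the 9 differences called by edgeR or DESeq2 and 5 at an unadjusted p under 0.05. Groups of 2 libraries can separate without any change in level. How often such moves occur over all tested genes was not counted, so the 9 cannot be read as a trait of the window. Il27 stood at 0.141 to 1.94 CPM.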

How the results depend on the processing

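The genotype differences of Gdpd3, Mapk3, Coro1a and Lat kept their sign in both states under all 16 alternatives, with Gdpd3 from 4.02 to 4.54 and Mapk3 from 0.85 to 1.18. These refits reuse the values that chose the members, so they describe the dependence on processing and are no further test. That of Spn under R848 kept its sign as well (-1.44 to -0.97). The untreated difference of Spn did not pass in some fits that left out a library, at -1.14 to -0.80. Kat8 failed in 3 such fits untreated (-0.88 to -0.70) and in 1 under R848 (-0.65). Within 1 Mb of Kat8, 6 genes were called under R848 and 4 untreated, and with no filter on low counts 13 were called untreated within 2 Mb. Leaving out a library gave 8 to 14 genes under R848, lowest without WT R848 replicate 1 or 2, and 5 to 9 untreated, lowest without KAT8-deficient untreated replicate 1.

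In the mean R848 response, 1 member was called with DESeq2 size factors, the DESeq2 Wald test, no filter, the 5 CPM filter, robust spread and the replicate block, each time Mapk3 (-0.22 to -0.21, adjusted p from 0.0175 to 0.0487), and 0 to 2 when a library was left out (Mapk3 without KAT8-deficient R848 replicate 2, Coro1a and Lat without replicate 1). In WT cells Mapk3 passed under 5 alternatives, and Spn with the replicate block (0.41, adjusted p = 0.0429). Over all tested genes, deviations from group means of same-numbered libraries had correlations of -0.06 to 0.048, which cannot exclude pairing for single genes. Spn was higher in replicate 1 than in replicate 2 in every group. With the replicate block its untreated log2 difference was -0.96 (SE 0.11, edgeR adjusted p = 0.00828), beside an SE of 0.20 without it. The block moved no count of window genes by over 1.5 times. No called value changed sign. Groups of 2 limit the precision, and Spn and WT Gdpd3 rest on few reads.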
